A study of Mus musculus with 199 samples.

Results

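Cholangiocyte and progenitor genes were followed in whole liver tumours and liver tissue of a mouse model of liver cancer on a background of fatty liver inflammation. The 6 genes are *Krt19*, *Krt7*, *Krt23*, *Sox9*, *Epcam* and *Cd24a*, chosen by symbol and found through their Ensembl identifiers among the 37713 genes of the count table. All 6 passed the filter on low counts. *Sox9* and *Krt23* rose in large and in small tumours. *Cd24a* was called higher in large tumours and not in small ones, although those groups did not differ by the test between them. The duct keratins *Krt19* and *Krt7* and the adhesion gene *Epcam* passed the test in neither tumour group.

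The libraries came from 25 large tumours, 25 small tumours and 15 samples of liver tissue. All mice were male and wild type on a C57BL/6 background bred in house, and no age was given. The tumours carry the treatment label DEN ALIOS, which joins the liver carcinogen diethylnitrosamine with the obesity-inducing ALIOS diet. The liver tissue samples are titled DEN ALIOS as well, but their treatment label reads Normal and the protocol calls them healthy tissue, so whether these livers were exposed cannot be told from the labels. RNA came from homogenised whole pieces, so in every value below fewer cells of a type and less RNA per cell cannot be told apart. The labels name no mouse for these libraries. The p-values therefore measure the spread between samples, which may share an animal. The depth was alike in the 3 groups, with 12856877 to 21850190 counts in genes for a large tumour, 12055434 to 21730174 for a small tumour and 12459307 to 18518631 for liver tissue.

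Cholangiocytes line the bile ducts and are the main epithelial cells of the adult liver besides hepatocytes. Under chronic injury, duct-like cells spread from the portal tracts in what is called a ductular reaction, and hepatocytes can switch on some duct and progenitor genes without becoming duct cells. Keratins 7 and 19 mark ducts and are scarce in mature hepatocytes, whereas *Sox9* is found both in duct cells and in injured or periportal hepatocytes. Liver tumours can carry the same genes, and KRT19 and EPCAM are used in human pathology as markers of a progenitor-like type of hepatocellular carcinoma.

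On GRCm38 and the GENCODE M21 annotation, *Krt19* (ENSMUSG00000020911) lies on chromosome 11 from 100140810 to 100148665 and *Krt23* (ENSMUSG00000006777) on the same chromosome from 99477974 to 99493137, both on the minus strand. *Sox9* (ENSMUSG00000000567) lies on chromosome 11 from 112782224 to 112787760 on the plus strand. *Krt7* (ENSMUSG00000023039) spans 101411043 to 101430313 of chromosome 15, *Epcam* (ENSMUSG00000045394) spans 87635979 to 87651129 of chromosome 17 and *Cd24a* (ENSMUSG00000047139) spans 43578284 to 43584265 of chromosome 10, all on the plus strand. No other gene of the table overlaps any of them.

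Promoters of 3 of the 6 genes were matched by symbol in the RefSeq promoter table for GRCm38.p6, each from 250 bases before to 50 bases after the start site. No match was found for the other members. *Krt7* and *Epcam* varied together from tumour to tumour while *Krt23* varied apart from both. Capitals mark the letters ATAAAA on the sense strand. These letters can be part of a TATA box, and whether they act as one here was not tested.
Krt7, chr15:101412153-101412452, plus strand: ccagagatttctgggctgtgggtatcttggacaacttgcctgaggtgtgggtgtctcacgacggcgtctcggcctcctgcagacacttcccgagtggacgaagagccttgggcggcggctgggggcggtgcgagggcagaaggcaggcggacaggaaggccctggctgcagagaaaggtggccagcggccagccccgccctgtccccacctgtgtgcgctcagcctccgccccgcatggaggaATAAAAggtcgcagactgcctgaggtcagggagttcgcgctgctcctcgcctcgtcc
Krt23, chr11:99493071-99493370, minus strand: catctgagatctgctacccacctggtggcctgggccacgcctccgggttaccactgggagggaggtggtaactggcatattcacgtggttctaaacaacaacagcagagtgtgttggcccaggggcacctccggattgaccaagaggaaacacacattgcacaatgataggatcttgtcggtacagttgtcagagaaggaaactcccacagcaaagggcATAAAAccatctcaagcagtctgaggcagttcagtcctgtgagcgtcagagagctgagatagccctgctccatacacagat
Epcam, chr17:87635729-87636028, plus strand: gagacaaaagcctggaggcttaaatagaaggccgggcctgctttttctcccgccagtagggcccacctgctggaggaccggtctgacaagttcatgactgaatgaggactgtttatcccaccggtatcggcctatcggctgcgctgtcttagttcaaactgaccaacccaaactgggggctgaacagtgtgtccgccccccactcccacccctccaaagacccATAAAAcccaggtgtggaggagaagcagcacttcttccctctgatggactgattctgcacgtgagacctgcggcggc

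ATAAAA stood once in each of these windows, with its first base at -7 from the RefSeq start in *Krt7*, -31 in *Krt23* and -27 in *Epcam*. Of all 32851 promoters in the table, 11.1% held it on the sense strand. The GC box GGGCGG occurred at 2 places on the sense and 2 on the antisense strand of the *Krt7* window and at 1 on the antisense strand of *Epcam*, and 35.7% of all promoters held it on either strand. The windows did not contain, on either strand, GGAATG (the core letters bound by TEAD factors, in 14.7% of all promoters), TGGGAA (RBPJ, 25.6%), GTTAAT (HNF1 factors, 7.10%) or AACCGGTT (grainyhead factors, 0.146%). TGGGAA and GGAATG can overlap by shared letters. GC content was 66.3% for *Krt7*, 53% for *Krt23* and 57% for *Epcam*, beside a median of 52.7% over all promoters.

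Levels below are counts per 1000000 gene counts (CPM) after TMM scaling. Each fold change is given on the log2 scale with its standard error, fitted by edgeR's quasi-likelihood method to all 65 libraries with the library set as a term. A library set is the group of libraries that share a prefix in the description label. There were 3 sets, each holding all 3 groups. A gene was called higher or lower when its p, adjusted by Benjamini-Hochberg over 14538 genes, was under 0.05. Large tumours against liver tissue gave 70.5% of genes called, 38.5% higher and 32.1% lower, and small tumours against liver tissue 65.7%, 34.7% higher and 31% lower. The calls of members and of gene lists are to be read against those shares, and both comparisons use the same 15 liver tissue samples. Members and lists were chosen with earlier results of these data known, so a list's count beside those shares is a description and not an independent test. In 3 liver tissue libraries of set 1 and 1 large tumour of set 3 the neutrophil gene *S100a8* stood above 10 CPM (17.1 to 19.3 in the liver tissue samples and 11.3 in the tumour), and member values without these libraries are given where a call rests on them. The hepatocyte factor gene *Hnf4a*, a marker of the tissue itself, had medians of 684 CPM in large tumours, 699 in small tumours and 701 in liver tissue.

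Among the 6 genes, 3 were called higher and 0 lower in large tumours, and 2 higher and 0 lower in small tumours, and DESeq2 called 3 and 2 of them. *Krt23* encodes a type I keratin that is scarce in healthy liver and known as a stress-inducible marker of the ductular reaction. It had a lowest, median and highest level of 3.64, 20.3 and 49.5 CPM in large tumours, 2.13, 12.7 and 50.2 CPM in small tumours, and 0.743, 1.74 and 8.66 CPM in liver tissue. Of the large tumours 22 of 25, and of the small tumours 19 of 25, stood above the highest liver tissue sample, and no tumour stood below the lowest. That highest sample, replicate 3, stood apart from the rest of its group, whose next value was 4.94 CPM. The fold change was 3.21 ± 0.37 in large tumours (edgeR adjusted p = 1.98e-11, means 22.6 ± 13.1 against 2.53 ± 1.98 CPM, SD) and 2.73 ± 0.37 in small tumours (adjusted p = 2.7e-09, mean 17.1 ± 12.9 CPM).

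*Sox9* encodes a transcription factor of bile duct development that is also switched on in hepatocytes after injury. Its lowest, median and highest levels were 1.66, 21.4 and 56.9 CPM in large tumours, 8.11, 18.2 and 33.3 CPM in small tumours, and 3.38, 5.27 and 11.8 CPM in liver tissue. Of the large tumours 21 of 25, and of the small tumours 22 of 25, were above every liver tissue sample. Only large tumour replicate 16 was below the lowest of them. *Sox9* rose by 1.96 ± 0.24 in large tumours (adjusted p = 9.2e-11, means 23.3 ± 13.0 against 6.19 ± 2.44 CPM) and by 1.63 ± 0.23 in small tumours (adjusted p = 1.4e-08, mean 18.1 ± 5.42 CPM). Within single library sets the *Krt23* fold changes ran from 2.99 to 3.66 in large and from 2.05 to 3.68 in small tumours, and those of *Sox9* from 1.79 to 2.09 and from 1.41 to 1.93, all called by edgeR.

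*Cd24a* encodes a small glycoprotein anchored in the membrane by a lipid and serves as a surface marker of liver progenitor cells, but it is also carried by neutrophils and B cells. It ran over 2.28, 11.3 and 36.0 CPM (lowest, median, highest) in large tumours, 1.49, 8.14 and 45.2 CPM in small tumours, and 3.49, 6.70 and 17.2 CPM in liver tissue. The groups overlapped widely, with 8 large and 5 small tumours above the liver tissue range and 3 large and 2 small tumours below it. *Cd24a* rose by 0.91 ± 0.32 in large tumours (edgeR adjusted p = 0.0087), while in small tumours the value was 0.61 ± 0.32 (adjusted p = 0.084, 95% interval -0.02 to 1.24). The call in large tumours was lost within each single set (1.37, 0.81 and 0.46, adjusted p = 0.050, 0.080 and 0.64), without set 1 (0.69, adjusted p = 0.11), without set 2 (0.95, adjusted p = 0.061) and against a 2-fold minimum. Without the libraries high in *S100a8* it was 0.77 (adjusted p = 0.043). In small tumours *Cd24a* passed the test at 0.73 (adjusted p = 0.040) without liver tissue replicate 8.

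*Epcam* encodes the epithelial cell adhesion molecule, which in the adult liver is found on duct cells and not on mature hepatocytes. It ran over 0.235, 2.86 and 11.7 CPM in large tumours, 0.805, 3.53 and 22.9 CPM in small tumours, and 1.74, 3.07 and 11.0 CPM in liver tissue. More tumours lay below the liver tissue range than above it, 9 against 1 among large and 8 against 3 among small tumours. The fitted values were -0.15 ± 0.38 in large tumours (edgeR adjusted p = 0.73, 95% interval -0.91 to 0.61) and 0.29 ± 0.38 in small tumours (adjusted p = 0.51, interval -0.46 to 1.05).

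*Krt19* encodes the type I keratin most often used to mark bile ducts. Its levels were 0.0692, 0.881 and 3.42 CPM in large tumours, 0, 1.48 and 8.63 CPM in small tumours, and 1.20, 2.02 and 6.39 CPM in liver tissue, which is 1 to 71, 0 to 157 and 17 to 106 counts per library. In 15 of 25 large and 10 of 25 small tumours *Krt19* was below the lowest liver tissue sample, and 0 large and 3 small tumours were above the highest. The fitted value in large tumours was -0.85 ± 0.43 (edgeR adjusted p = 0.070, 95% interval -1.71 to 0.003) and in small tumours -0.11 ± 0.41 (adjusted p = 0.82, interval -0.94 to 0.72). The large tumour value passed the test without the library set term (-1.004, adjusted p = 0.032), with only large tumours and liver tissue in the fit (-1.05, adjusted p = 0.017), within set 2 (-1.79, adjusted p = 0.011), without set 3 (-1.12, adjusted p = 0.035) and without the *S100a8*-high libraries (-0.99, adjusted p = 0.049). It also passed when small tumour replicate 5 (-0.91, adjusted p = 0.048) or large tumour replicate 20 (-0.97, adjusted p = 0.036), 22 (-0.94, adjusted p = 0.045) or 24 (-0.98, adjusted p = 0.035) was left out.

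*Krt7* encodes the type II keratin that pairs with keratin 19 in duct cells. It had 0, 0.812 and 6.38 CPM in large tumours, 0.0550, 1.56 and 7.26 CPM in small tumours, and 0.634, 1.78 and 4.67 CPM in liver tissue. Below the liver tissue range lay 9 large and 3 small tumours, and above it 2 of each. The fitted values were -0.36 ± 0.41 in large tumours (edgeR adjusted p = 0.43, 95% interval -1.17 to 0.46) and 0.003 ± 0.44 in small tumours (adjusted p = 0.996, interval -0.88 to 0.89). In large tumours the direction differed between library sets, with 0.86 in set 1 (adjusted p = 0.31) and -1.44 in set 2 (adjusted p = 0.020). *Krt7* had no count in large tumour replicates 6 and 21, where 3 counts, the limit that a count of 0 allows, come to 0.209 and 0.249 CPM. *Krt19* had none in small tumour replicate 6, where that limit is 0.165 CPM. Such limits cover counting error only.

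**Figure D1:**
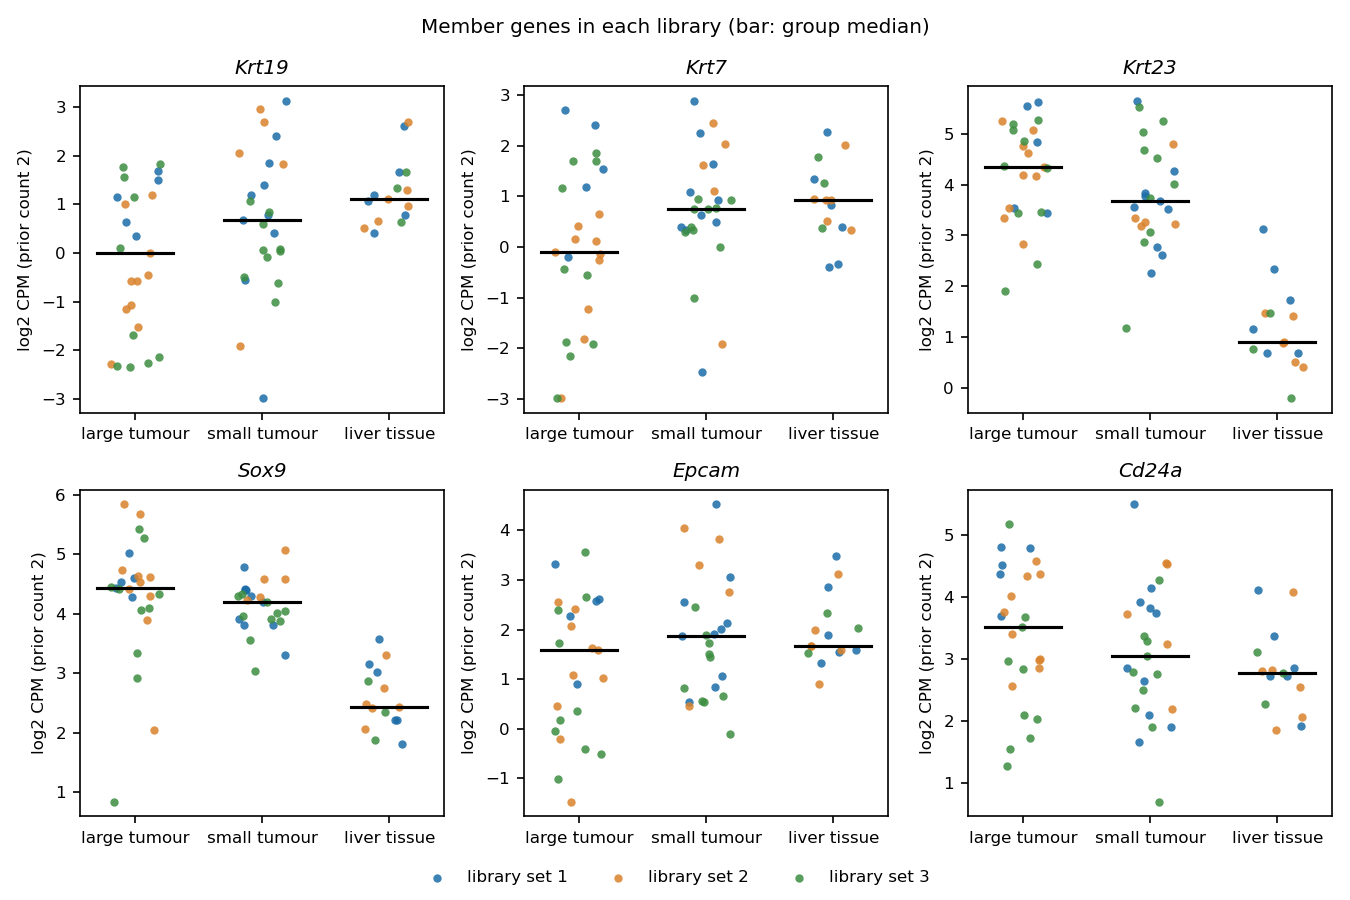
Each panel plots the log2 CPM (prior count 2) of 1 gene in 25 large tumours, 25 small tumours and 15 liver tissue libraries, with points coloured by library set and a bar at the group median. *Krt23* and *Sox9* sit mostly above the liver tissue range in both tumour groups, while *Krt7*, *Epcam* and *Cd24a* have tumours above and below it in both groups and *Krt19* has no large tumour above it.

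Large and small tumours were compared to ask whether the genes differ with tumour size. None of the 6 was called by edgeR (0 of 6 at an unadjusted p under 0.05 and 0 of 6 by DESeq2), where 2.48% of all genes were. The values were 0.48 ± 0.27 for *Krt23* (edgeR adjusted p = 0.33, 95% interval -0.05 to 1.02), 0.33 ± 0.19 for *Sox9* (adjusted p = 0.34, interval -0.04 to 0.71) and 0.30 ± 0.27 for *Cd24a* (adjusted p = 0.57, interval -0.23 to 0.83). On the other side of 0 stood *Krt19* at -0.74 ± 0.38 (adjusted p = 0.28, interval -1.5 to 0.02), *Epcam* at -0.44 ± 0.33 (adjusted p = 0.49, interval -1.11 to 0.22) and *Krt7* at -0.36 ± 0.35 (adjusted p = 0.61, interval -1.07 to 0.34). These intervals leave room for changes well beyond the values themselves, such as 1.02 for *Krt23* and -1.5 for *Krt19*. The data therefore do not show that large and small tumours are alike in these genes. The groups did not keep 1 order of *Krt19* and *Krt7* medians over the library sets. In set 1 *Krt19* had a median of 2.09 CPM in large tumours, 1.88 in small tumours and 2.08 in liver tissue, and in set 2 the medians were 0.544, 4.06 and 1.93 CPM. In set 3 they were 0.570, 0.910 and 2.39 CPM, so both tumour groups lay below liver tissue in set 3 alone. *Krt7* medians were 2.79, 1.60 and 1.42 CPM in set 1, 0.797, 2.93 and 1.78 CPM in set 2 and 0.586, 1.37 and 2.27 CPM in set 3, in the same order of groups. For *Krt19* the fold change between large and small tumours within single sets ran from -2.50 in set 2 to 0.41 in set 3, neither called.

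**Figure D2:**
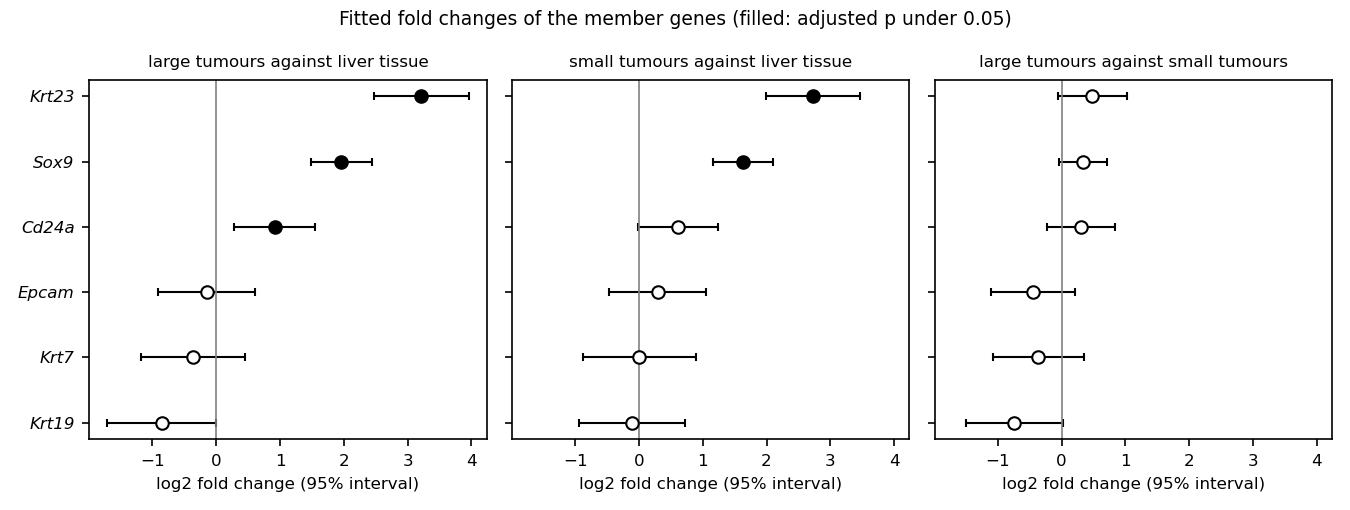
Fitted log2 fold changes of the 6 genes with 95% intervals are drawn for 3 comparisons, filled where the adjusted p was under 0.05. *Krt23*, *Sox9* and *Cd24a* are filled for large tumours against liver tissue, *Krt23* and *Sox9* for small tumours against liver tissue, and none for large against small tumours.

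The order of the genes differed between tumours and liver tissue when levels were taken per kilobase of exon. The lengths of all annotated exons were 7049 bases for *Krt7*, 4135 for *Sox9*, 2580 for *Cd24a*, 2195 for *Epcam*, 1855 for *Krt19* and 1565 for *Krt23*. The distance between *Krt7* and *Krt19* below comes mostly from these lengths. Before division their medians in liver tissue were 1.78 and 2.02 CPM. Median levels in large tumours were 13.0 CPM per kilobase for *Krt23*, 5.17 for *Sox9*, 4.39 for *Cd24a*, 1.30 for *Epcam*, 0.475 for *Krt19* and 0.115 for *Krt7*. In small tumours the order was the same, at 8.11, 4.40, 3.15, 1.61, 0.799 and 0.221 CPM per kilobase. In liver tissue *Cd24a* led at 2.60, followed by *Epcam* at 1.40, *Sox9* at 1.28, *Krt23* at 1.11, *Krt19* at 1.09 and *Krt7* at 0.252 CPM per kilobase. Neighbours in these orders were not always separate. *Sox9* exceeded *Cd24a* in 12 of 25 large and 15 of 25 small tumours, and in liver tissue *Krt23* exceeded *Krt19* in 8 of 15 samples and *Sox9* exceeded *Krt23* in 8 of 15. *Krt23* exceeded *Sox9* in 22 of 25 large and 21 of 25 small tumours, and *Cd24a* exceeded *Epcam* in all 25 large tumours, 24 of 25 small tumours and all 15 liver tissue samples.

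The ratio of CPM between genes of 1 library gives the same shift without reference to other libraries. *Sox9* to *Epcam* had a median of 8.51 in large tumours (2.15 to 50.2), 5.5 in small tumours (1.19 to 18.9) and 1.43 in liver tissue (1.01 to 3.79). *Krt23* to *Epcam* had medians of 7.73, 3.18 and 0.452 in the same 3 groups. *Krt19* to *Epcam* was 0.308 in large tumours, 0.439 in small tumours and 0.607 in liver tissue, and *Cd24a* to *Epcam* was 4.11, 2.25 and 1.81. The ranges of tumours and liver tissue overlapped for every one of these ratios.

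The spread among tumours was wider than among liver tissue samples for some of the genes, though none passed the test for it. The SD of log2 CPM of *Krt19* was 1.49 in large tumours, 1.49 in small tumours and 0.69 in liver tissue. For *Krt7* it was 1.62, 1.21 and 0.78, and for *Epcam* 1.40, 1.24 and 0.71. Absolute deviations of log2 CPM from the group median, with library set means removed, were compared with limma. None of the 6 genes was called wider in large tumours, where 2.7% of all genes were, although *Krt19* (difference 0.60, adjusted p = 0.13), *Krt7* (0.58, adjusted p = 0.14) and *Epcam* (0.53, adjusted p = 0.11) had an unadjusted p under 0.05. None was called in small tumours either (0 of 6 at an unadjusted p under 0.05), where 2.55% of all genes were called wider. *Sox9* had an SD of 1.07 in large and 0.44 in small tumours (adjusted p = 0.59 for the difference in deviations, 0.0275% of all genes called).

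The 6 genes did not vary as 1 block from library to library. Correlations of log2 CPM, with library set means removed, were computed for the 15 pairs in each of the 3 groups and tested by permuting libraries (100000 draws, two-sided, adjusted over 45 relations). Of these 25 passed, 8 in large tumours, 7 in small tumours and 10 in liver tissue. The 6 pairs among *Krt19*, *Krt7*, *Epcam* and *Cd24a* passed in all 3 groups, 18 of 18. Both genes of a pair are read from the same libraries and share their scaling, and *Krt19* and *Krt7* rest on few counts.

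*Krt19* and *Krt7* had Pearson's r = 0.852 and Spearman's rho = 0.851 in large tumours (n = 25, permutation p = 1e-05 for each, the smallest the draws can give, adjusted p = 6.4e-05 and 7.5e-05), and r = 0.813 without the 2 libraries farthest from the *Krt19* median. In small tumours r was 0.961 and rho 0.882 (n = 25, permutation p = 1e-05 for each, adjusted p = 6.4e-05 and 7.5e-05), and 0.895 without those 2 libraries. In liver tissue r was 0.827 and rho 0.768 (n = 15, permutation p = 0.00015 and 0.0013, adjusted p = 0.00045 and 0.0041). There r dropped to 0.628 without the 2 farthest samples (permutation adjusted p = 0.053), so the relation in liver tissue no longer passed without them. Within single sets of at least 6 libraries r ran from 0.588 to 0.960 in large tumours, 0.757 to 0.972 in small tumours and 0.777 to 0.920 in liver tissue.

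*Epcam* and *Cd24a*, both surface molecules, had r = 0.832 and rho = 0.837 in large tumours and r = 0.808 and rho = 0.768 in small tumours (n = 25 each, permutation p = 1e-05, adjusted p = 6.4e-05 for r and 7.5e-05 for rho). Without the 2 farthest libraries r was 0.780 and 0.730. In liver tissue r was 0.912 and rho 0.879 (n = 15, permutation p = 2e-05 and 6e-05, adjusted p = 8.2e-05 and 0.0003), and 0.781 without the 2 farthest samples. Within sets r ran from 0.705 to 0.896 in large tumours, from 0.728 to 0.895 in small tumours and from 0.884 to 0.945 in liver tissue. *Epcam* also followed *Krt19* (r = 0.806 in large tumours, 0.873 in small tumours and 0.886 in liver tissue).

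In tumours *Sox9* passed with *Cd24a* in both groups and with *Epcam* in large tumours. With *Cd24a* r was 0.524 and rho 0.426 in large tumours (n = 25, permutation p = 0.0093 and 0.035, adjusted p = 0.018 and 0.072) and 0.501 and 0.375 in small tumours (n = 25, permutation p = 0.011 and 0.065, adjusted p = 0.020 and 0.12). Without the 2 libraries farthest in *Sox9*, r was 0.342 in large tumours (permutation adjusted p = 0.21) and 0.263 in small tumours (adjusted p = 0.37), so these relations rest on those libraries. With *Epcam* r was 0.564 in large tumours (rho 0.459, permutation adjusted p = 0.0059 and 0.050) and 0.297 without the 2 farthest (adjusted p = 0.30). In small tumours r with *Epcam* was 0.265 and did not pass (permutation adjusted p = 0.29). With *Krt19* the values were 0.246 in large and 0.125 in small tumours, neither passing (permutation adjusted p = 0.34 and 0.63). In liver tissue (n = 15) r of *Sox9* was 0.646 with *Krt19*, 0.656 with *Epcam* and 0.599 with *Krt7*, and each passed (permutation adjusted p = 0.018, 0.017 and 0.032). The matching rho values were 0.589, 0.489 and 0.489 (permutation adjusted p = 0.050, 0.12 and 0.12). Without the 2 libraries farthest in *Krt19*, r with *Krt19* was 0.264 in liver tissue (permutation adjusted p = 0.53), and without the 2 farthest in *Krt7*, r with *Krt7* was 0.247 (adjusted p = 0.54). Without the 2 farthest in *Sox9*, r with *Epcam* was 0.314 (permutation adjusted p = 0.46), so none of these 3 relations passed then. With *Cd24a* r in liver tissue was 0.452 and did not pass (permutation adjusted p = 0.15).

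*Krt23* passed with no other member in tumours (lowest permutation adjusted p = 0.095, with *Cd24a* in small tumours). Its r with the other 5 genes ran from -0.290 to -0.052 in large tumours and from -0.109 to 0.388 in small tumours. In liver tissue it followed *Sox9*, with r = 0.833 and rho = 0.850 (n = 15, permutation p = 9e-05 for each, adjusted p = 0.00029 and 0.00034), r = 0.869 without the 2 farthest samples, and 0.654 and 0.856 within the sets of 6. In tumours the same pair had r = -0.173 in large (permutation adjusted p = 0.52) and 0.159 in small tumours (adjusted p = 0.54). Whether r differs between tumours and liver tissue was not tested.

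**Figure D3:**
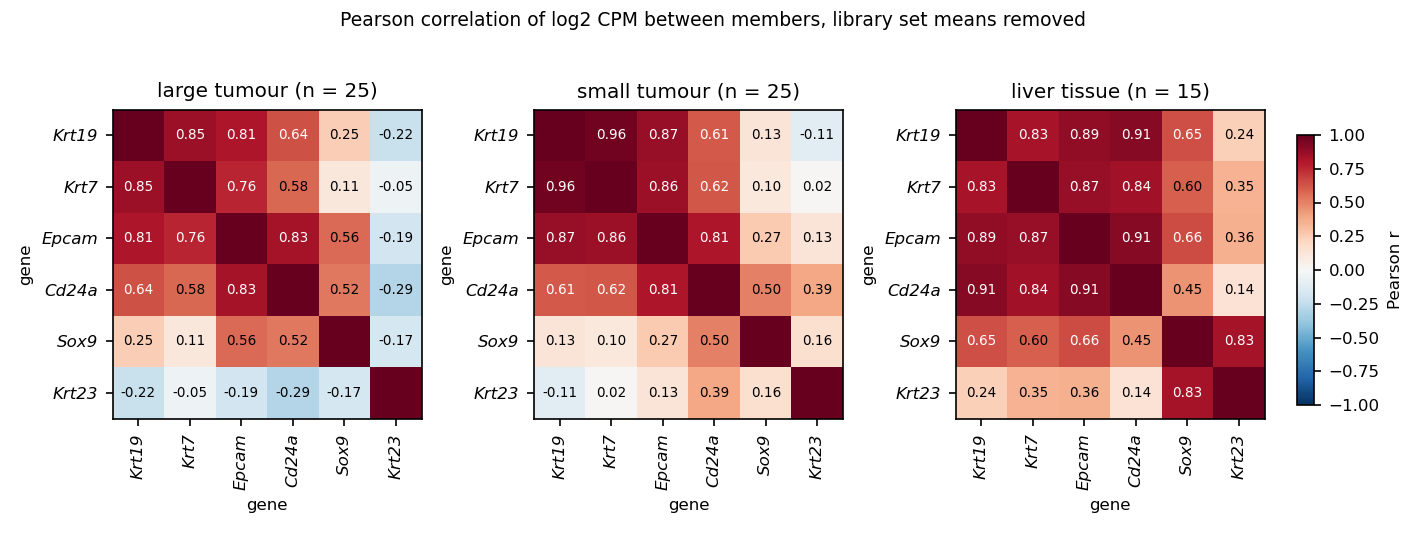
Pearson's r of log2 CPM between members is shown for large tumours (n = 25), small tumours (n = 25) and liver tissue (n = 15), after removing library set means, from blue (-1) to red (1). The pairs among *Krt19*, *Krt7*, *Epcam* and *Cd24a* are red in every panel, and *Krt23* is pale with all others in the tumour panels but red with *Sox9* in liver tissue.

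Set against the range of the liver tissue samples, most tumours high in *Krt23* were also high in *Sox9*, and many were low in *Krt19*. Of the 22 large tumours above that range in *Krt23*, 20 were also above it in *Sox9*, 13 were below it in *Krt19*, 8 were below it in *Epcam* and 0 were above it in *Krt19*, where 15 of all 25 were below it in *Krt19*. Of the 19 such small tumours, 17 were above it in *Sox9*, 9 below it in *Krt19*, 7 below it in *Epcam* and 3 above it in *Krt19*. Over all 25 large tumours 21 were above it in *Sox9* and 9 below it in *Epcam*. Over all 25 small tumours 22 were above it in *Sox9*, 10 below it in *Krt19* and 8 below it in *Epcam*. The counts among tumours high in *Krt23* were near these shares, so they do not show that the states go together. In large tumours 14 of 25 had exactly 2 members above the range, and none had more than 4. In small tumours 12 of 25 had 2, and 2 had all 6.

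Small tumours 5 and 14 were those 2. Replicate 5 had 8.63 CPM of *Krt19*, 7.26 of *Krt7*, 22.9 of *Epcam* and 45.2 of *Cd24a*, each the highest value of the 25 small tumours. Replicate 14 had 7.69 CPM of *Krt19*, 5.30 of *Krt7*, 16.5 of *Epcam* and 33.3 of *Sox9*. The summed level of 29 biliary genes outside the members was 2819 CPM in replicate 5 and 2363 CPM in replicate 14, ranks 1 and 3 among small tumours. The sum is not weighted, so it mostly reads the abundant genes and does not show that all 29 were high. In small tumours the medians of *Spp1*, *Tspan8* and *Cdh1* were 465, 205 and 199 CPM, and that of *Cftr* was 0.932 CPM. In liver tissue *Spp1* had a median of 116 CPM and reached 516 CPM. The mesothelial genes of small tumours 5 and 14 summed to 8.36 and 12.3 CPM, ranks 7 and 2 of 25. At the other end, large tumour 10 had 0.235 CPM of *Epcam* and 0.0784 of *Krt19* with 26.9 of *Krt23*, and large tumour 16 had 1.66 CPM of *Sox9* with 38.4 of *Krt23*. In liver tissue, replicates 2 and 8 had the highest *Epcam* (11.0 and 8.62 CPM), *Krt19* (6.03 and 6.39) and *Cd24a* (17.2 and 16.9), and ranked 1 and 2 in the summed biliary genes at 1064 and 767 CPM. Their mesothelial genes summed to 7.86 and 6.33 CPM, ranks 3 and 4 of 15, and the part of mesothelial cells in these libraries' values was not tested.

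**Figure D4:**
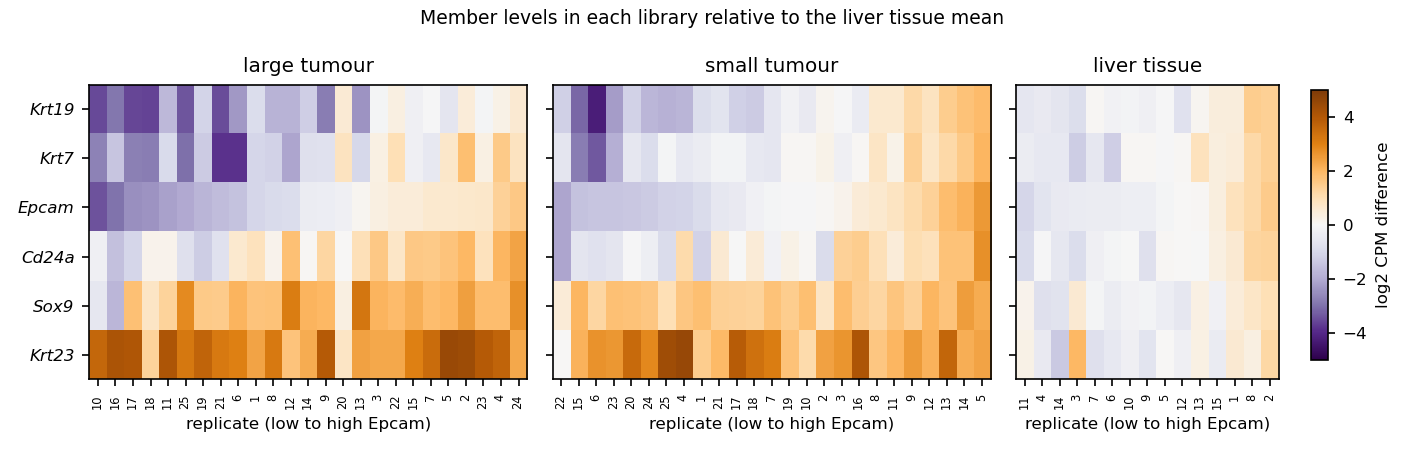
Each column is a library, ordered from low to high *Epcam* within its group, and each row a gene; colour gives log2 CPM (prior count 2) minus the mean of the liver tissue group. *Krt19*, *Krt7* and *Cd24a* turn from purple (lower) to orange (higher) along with *Epcam* in all groups, while *Krt23* is high in most columns of both tumour groups, 22 of 25 large and 19 of 25 small tumours standing above the liver tissue range.

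The genes whose levels over the 50 tumours were most like each member, by Pearson's r of log2 CPM with group and library set means removed, differed from member to member. These correlations describe the 50 tumours and carry no test. *Krt19* was nearest to *Krt7* (r = 0.898), the endocytic adaptor gene *Epn3* (0.897) and the laminin gene *Lamc3* (0.871), and *Krt7* to *Krt19*, the metalloprotease gene *Adam33* (0.862) and *Fam180a* (0.829). Near *Epcam* stood the serine protease inhibitor gene *Spint1* (0.892) and the doublecortin-domain gene *Dcdc2a* (0.888). *Cd24a* was closest to the small GTPase gene *Arl4c* (0.861), *Tmem132a* (0.846) and the integrin gene *Itgb4* (0.833). *Sox9* was nearest to the ETS factor gene *Etv4* (0.832), *Zfp608* (0.769) and *Maml3*, a coactivator of Notch signalling (0.766). *Krt23* was nearest to another keratin gene, *Krt20* (0.696), then to *Tmem45b* (0.626) and *Tcf20* (0.597).

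All 6 neighbours of *Sox9* and *Krt23* were called higher in both tumour groups, where 38.5% of all genes were in large and 34.7% in small tumours. *Etv4* and *Krt20* were scarce in liver tissue and passed the filter on low counts through their tumour counts. They could hardly be called lower. *Etv4* had medians of 7.18 CPM in large tumours, 3.59 in small tumours and 0.186 in liver tissue, and rose by 4.53 ± 0.43 in large (edgeR adjusted p = 2.4e-14) and 3.65 ± 0.42 in small tumours (adjusted p = 3.6e-11). *Krt20* had medians of 9.88 CPM in large tumours, 8.48 in small tumours and 0.180 in liver tissue, and rose by 4.98 ± 0.62 (adjusted p = 1.8e-10) and 5.05 ± 0.62 (adjusted p = 2.0e-10). *Zfp608* (1.24 ± 0.13 and 1.03 ± 0.13), *Maml3* (1.33 ± 0.17 and 1.16 ± 0.17), *Tmem45b* (1.95 ± 0.34 and 1.25 ± 0.33) and *Tcf20* (0.35 ± 0.05 and 0.30 ± 0.05) changed less, the first value of each being for large tumours.

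None of the neighbours of *Krt19*, *Krt7* and *Epcam* named here was called higher, where 38.5% of all genes were in large and 34.7% in small tumours. *Spint1*, *Dcdc2a* and *Epn3* passed in neither tumour group, with values from -0.73 to -0.11 in large tumours. *Adam33* fell by 1.58 ± 0.36 in large (edgeR adjusted p = 0.00011) and 1.38 ± 0.36 in small tumours (adjusted p = 0.00070), and *Fam180a* fell by 1.14 ± 0.28 and 0.94 ± 0.27. *Lamc3* fell by 1.42 ± 0.44 in large tumours (adjusted p = 0.0034), where its median was 0.877 CPM against 5.78 CPM in liver tissue. Near *Cd24a*, *Tmem132a* (0.94 ± 0.24 and 0.79 ± 0.24) was called higher in both tumour groups, and *Arl4c* (0.49 ± 0.16) and *Itgb4* (0.69 ± 0.31, adjusted p = 0.040) in large tumours.

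Other biliary genes, from a list without the members, went in both directions. Genes named below as the few of a list that went the other way were picked after their values were seen. Of 29 listed, 26 were tested, and 10 were called higher, 4 lower and 12 neither in large tumours, with a median of 0.40 beside 0.05 over all genes, of which 38.5% were called higher. In small tumours 11 were higher, 3 lower and 12 neither (median 0.48 beside 0.03), with 34.7% of all genes called higher. The count of higher biliary genes in large tumours was near the share over all genes. *Tspan8*, a tetraspanin gene, rose by 4.43 ± 0.51 in large tumours (edgeR adjusted p = 2.3e-11) and 4.75 ± 0.52 in small tumours, *Gprc5a*, an orphan receptor gene, by 3.50 ± 0.40 (adjusted p = 1.4e-11) and 2.58 ± 0.39, and *Cdh1*, which encodes E-cadherin, by 2.86 ± 0.22 (adjusted p = 2.9e-17) and 2.63 ± 0.22. Named after their values were seen, the secreted matrix protein gene *Spp1* rose by 2.70 ± 0.49 in large tumours, and the chloride channel gene *Cftr* was at 0.47 ± 0.52 (edgeR adjusted p = 0.43). The 4 lower ones in large tumours were the transcription factor genes *Onecut1*, *Onecut2* and *Grhl2* and the lectin gene *Lgals4*.

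Most of the tested genes of liver progenitors and the ductular reaction were called higher in both tumour groups. Of 19 listed, 12 were tested, and in large tumours 9 were called higher and 1 lower (median 2.00). In small tumours 8 were higher and 1 lower (median 1.56). Over all genes 38.5% and 34.7% were called higher in the same comparisons. A gene scarce in liver tissue, such as *Bex2* (median 0.121 CPM there), passed the filter on low counts through its tumour counts. Such a gene could hardly be called lower, so the counts of this list lean towards higher genes. *Bex2* rose by 4.05 ± 0.42 in large (edgeR adjusted p = 5.2e-13) and 3.84 ± 0.42 in small tumours, the receptor gene *Tnfrsf12a*, which drives ductular growth in mice, by 3.26 ± 0.23 (adjusted p = 4.7e-19) and 2.95 ± 0.22, and *Lcn2*, which encodes a siderophore-binding protein of injured liver, by 3.18 ± 0.34 (adjusted p = 1.3e-12) and 2.78 ± 0.33. The lower one was *Lgr5*, a Wnt target, at -1.44 ± 0.53 in large tumours (edgeR adjusted p = 0.013) and -1.85 ± 0.49 in small tumours, with 0.0696, 0.759 and 42.1 CPM as lowest, median and highest in large tumours and 3.95, 5.88 and 8.27 CPM in liver tissue.

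Of 7 other keratin genes 6 were tested. Of these 4 were called higher and 1 lower in large tumours and 4 higher and 0 lower in small tumours. Over all genes the shares called higher were 38.5% in large and 34.7% in small tumours. *Krt20* and *Krt222*, scarce in liver tissue, passed the filter on low counts through their tumour counts and could hardly be called lower. The hepatocyte keratin gene *Krt18* rose by 1.40 ± 0.11 in large tumours (edgeR adjusted p = 3.1e-17), at a median of 683 CPM against 236 CPM in liver tissue, and by 1.18 ± 0.11 in small tumours. Its partner *Krt8* rose by 0.87 ± 0.10 in large tumours. *Krt222* rose by 3.39 ± 0.51 in large and 2.84 ± 0.52 in small tumours from few counts, with medians of 0.786, 0.446 and 0.0595 CPM in large tumours, small tumours and liver tissue. The lower one was *Krt10* (-0.35 ± 0.12). Of 13 genes that act at tight junctions with or near *Epcam*, 10 were higher and 1 lower in each tumour group, among the higher *Cldn1* (1.89 ± 0.17 in large and 1.75 ± 0.17 in small tumours), *Cldn14* (1.503 ± 0.13 and 1.62 ± 0.13) and *Tspan8* of the biliary list, and the lower one was *Cldn12* (-0.41 ± 0.05 in large tumours).

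Notch and Hippo signalling act upstream of *Sox9* in duct cells. Of 17 Notch genes, 12 were called higher and 3 lower in large tumours and 11 higher and 2 lower in small tumours (medians 0.61 and 0.54). Over all genes 38.5% were called higher and 32.1% lower in large tumours, and 34.7% and 31% in small tumours. The part of either pathway in the *Sox9* values was not tested. The ligand gene *Jag2* rose by 1.98 ± 0.37, the target gene *Nrarp* by 1.96 ± 0.26 and the receptor gene *Notch3* by 1.95 ± 0.18 in large tumours (edgeR adjusted p = 3.8e-06, 1.7e-09 and 5.1e-15), and by 1.14 ± 0.37, 1.58 ± 0.25 and 1.61 ± 0.17 in small tumours. The 3 lower ones in large tumours were *Dll1*, *Rfng* and *Lfng*. Of 18 Hippo genes, 13 were higher and 2 lower in large and 14 higher and 1 lower in small tumours (medians 0.45 and 0.41). The DNA-binding partner genes *Tead4* (3.16 ± 0.33 in large and 2.83 ± 0.32 in small tumours) and *Tead2* (1.78 ± 0.21 and 1.38 ± 0.21) and the growth factor gene *Tgfb2* (1.90 ± 0.22 and 1.86 ± 0.22) led, and the 2 lower ones in large tumours were *Axl* and *Nuak2*.

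Of 12 transcription factor genes of the hepatocyte, 1 was called higher and 9 lower in large tumours, and 1 higher and 8 lower in small tumours (medians -0.44 and -0.33). Over all genes the shares called lower were 32.1% in large and 31% in small tumours. The nuclear receptor genes *Nr1i3* (-3.33 ± 0.37 in large and -2.60 ± 0.35 in small tumours) and *Nr1h4* (-1.43 ± 0.12 and -1.18 ± 0.11) and *Onecut1* (-1.43 ± 0.15 and -1.102 ± 0.15), which is also on the biliary list, moved most, and *Foxa3* (1.03 ± 0.09 in large tumours) was the higher one. *Hnf4a* and *Foxa1* were not called in either comparison.

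Genes of other cells that a piece of liver or tumour could hold were also listed. Mesothelial genes, which share keratin 7 and 19 with ducts, summed to 0.289, 3.25 and 14.2 CPM (lowest, median, highest) in large tumours, 1.60, 6.75 and 16.4 CPM in small tumours and 2.33, 4.27 and 8.36 CPM in liver tissue. None of the 3 tested was called by edgeR in large tumours (0 at an unadjusted p under 0.05) or in small tumours (1 at an unadjusted p under 0.05), and DESeq2 also called 0. *Msln* was at -0.32 ± 0.53 and *Gpm6a* at 0.16 ± 0.30 in large tumours, and at 0.83 ± 0.53 and 0.28 ± 0.29 in small tumours. Between large and small tumours 0 of 3 were called (2 at an unadjusted p under 0.05). There *Msln* was at -1.15 ± 0.44 (edgeR adjusted p = 0.14) and *Gpm6a* at -0.12 ± 0.25. Gallbladder and gut genes summed to 5.24, 83.4 and 515 CPM in large tumours, 6.15, 122 and 375 CPM in small tumours and 2.1, 7.53 and 107 CPM in liver tissue. These unweighted sums mostly read *Tff3*, with medians of 69.4, 115 and 6.93 CPM in the same 3 groups. Of 9 listed, 3 were tested and called higher in both tumour groups, *Krt20*, *Tff3* (1.95 ± 0.54 in large tumours) and *Vil1* (2.26 ± 0.63). Over all genes 38.5% were called higher in large and 34.7% in small tumours. *Krt20* and *Vil1* were scarce in liver tissue and passed the filter on low counts through their tumour counts. They could hardly be called lower. *Vil1* differed little at the median, with 0.486 CPM in large tumours and 0.368 CPM in liver tissue. Its highest large tumour stood at 36.2 CPM and its highest liver tissue sample at 1.16 CPM. *Cdx2* and *Agr2* were at 0 in every large tumour and liver tissue library. In the pancreas list *Cela1* rose by 2.20 ± 0.22 in large tumours, and the list summed to 10.2, 41.6 and 97.7 CPM there, 16.1, 43.1 and 70.7 CPM in small tumours and 7.26, 9.90 and 27.2 CPM in liver tissue, where *Cpa1*, *Cel*, *Pnlip* and *Ctrb1* were at 0 in every library. The pancreas sums mostly read *Cela1*, with medians of 40.8 CPM in large tumours, 42.7 in small tumours and 9.61 in liver tissue. In large tumours *Cpa1*, *Cel*, *Pnlip*, *Ctrb1*, *Prss2* and *Amy2b* had medians of 0. The part of mesothelial, gallbladder, gut and pancreas cells in the member results was not tested.

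Because neutrophils and B cells express *Cd24a*, their genes were read beside it. Neutrophil genes summed to 2.31, 6.97 and 48.5 CPM in large tumours, 3.69, 6.60 and 26.6 CPM in small tumours and 5.52, 10.7 and 84.6 CPM in liver tissue. Of 5 tested, 0 were higher and 1, *Ngp* (-1.51 ± 0.64), was lower in large tumours, and 4 were lower in small tumours. DESeq2 called 0 higher and 2 lower in large tumours. B cell genes summed to 2.21, 5.43 and 10.7 CPM in large tumours, 1.47, 5.02 and 19.4 CPM in small tumours and 4.30, 8.65 and 13.8 CPM in liver tissue. Of 5 tested, 4 were lower in large tumours, among them *Ms4a1* (-0.64 ± 0.28), and *Cr2* was called higher (1.02 ± 0.45, edgeR adjusted p = 0.040). The *Cr2* median was nevertheless lower in large tumours (0.444 CPM) than in liver tissue (0.581 CPM), with highest values of 6.06 and 0.851 CPM. The part of neutrophils and B cells in the *Cd24a* values was not tested. Erythroid genes summed to medians of 362, 467 and 548 CPM in large tumours, small tumours and liver tissue, with 2 of 7 lower in large tumours, among them *Alas2* (-1.14 ± 0.19), and 1 lower in small tumours. Of 10 stellate cell genes, 4 were higher in both tumour groups, among them *Acta2* (2.12 ± 0.27 in large tumours), *Col1a1* (1.93 ± 0.30) and *Reln* (1.46 ± 0.26). The 3 lower ones in large tumours were *Lrat* (-1.33 ± 0.24), *Ecm1* (-1.16 ± 0.19) and *Dcn* (-0.98 ± 0.19), which were lower in small tumours too. The stellate list's median was -0.11 in large and -0.09 in small tumours. Over all genes 38.5% were called higher and 32.1% lower in large tumours, and 34.7% and 31% in small tumours. The stellate counts were near those shares.

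The series also holds sorted Ly6G-positive neutrophils (61 libraries) and CD3-positive T cells (73 libraries) labelled liver or blood, made with another kit, so their levels are a description only. *Cd24a* had a lowest, median and highest level of 108, 530.3 and 996 CPM in neutrophils and of 0, 7.72 and 274 CPM in T cells. *Krt7* was present in every neutrophil library, at a median of 24.7 CPM in blood and 4.44 CPM in liver, and had a median of 0.177 CPM in T cells. *Epcam* was present in every T cell library, at a median of 5.78 CPM in liver and 3.71 CPM in blood, and had a median of 0 in neutrophils. *Krt19*, *Krt23* and *Sox9* had medians of 0 in both cell types, with highest values of 16.2, 8.97 and 26.8 CPM in neutrophils and 7.52, 1.35 and 12.8 CPM in T cells.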

How the data were processed

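Whole-tissue RNA was sequenced from stranded mRNA libraries, per the labels' protocols. Raw counts of reads per gene were deposited by the authors for 199 libraries, of which 65 are tissue or tumour. The submitters' processing notes name FastQC 0.11.8 and Trim Galore 0.6.4, the aligner HISAT2 2.1.0, the counter HTSeq 0.11.2 and the build GRCm38. The annotation release and the strand setting are not given in the sources used here. The 5 summary entries, with 55.9% of all tissue entries, were left out. Among them were alignments to more than 1 place, at a median of 49.6% of the entries of a tissue library. Their effect on levels compared between genes was not tested.

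The 6 members and all gene lists were chosen with earlier results of these data known. Symbols were found for 37607 of 37713 identifiers. Over 705 pairs of libraries of 1 group, chi-square divided by its degrees of freedom was never below 2.82, above sampling noise, so no library was treated as a copy. Fits ran in R 4.3.3 with edgeR 4.0.16 over all genes (TMM factors, filterByExpr with a minimum count of 10 and a minimum total of 15, robust quasi-likelihood F test, terms for group and library set, Benjamini-Hochberg at 0.05), and each standard error is the fold change divided by the square root of F. The spread test used limma 3.58.1 on log2 CPM (prior count 2), and correlations used 100000 permutations.

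Named genes are the members, the 3 genes nearest to each (without predicted genes and antigen receptor segments), and of each list the up to 3 called genes with the largest change in large tumours, or, with none called, the 2 of lowest p. Some genes that this rule names are not reported here. Other names were added after their values were seen. Alternatives were RLE factors, no filter, DESeq2 1.42.0, no set term, single sets alone or left out, the replicate number as a block, only the compared groups, a 2-fold minimum, no *S100a8*-high libraries and leaving out each library. Exon lengths came from GENCODE M21.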

Additional observations from a re-analysis of the deposited data

How the results depend on the processing

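*Krt23* and *Sox9* kept their calls in both tumour groups under all 14 alternatives and in all 65 fits that left out 1 library. Large tumours against liver tissue gave 10253 called genes, 6409 and 5288 within sets 1 and 3, and 1590 with a 2-fold minimum. Small tumours gave 9558, with 6217, 4540 and 1171 under the same settings. Large against small tumours gave 360 genes, 0, 8 and 2 within sets 1, 2 and 3, 15, 75 and 157 without them, 38 with only those groups in the fit, 0 with a 2-fold minimum, 200 without *S100a8*-high libraries, 570 with DESeq2 and 177 to 893 with 1 library left out. Members lower in large tumours numbered 0, but 1 (*Krt19*) with no set term, without set 3, with only the 2 groups and without *S100a8*-high libraries, 2 (*Krt19* and *Krt7*) within set 2, and 0 to 1 with 1 library left out. Genes with wider spread numbered 392 in large and 370 in small tumours, and 173 and 39 with set means kept. Fewer samples entered the fits of single sets, and the cause of the other shifts was not tested.

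None of the values below passed the test after turning sign. In large tumours against liver tissue these were *Krt7* within set 1 (0.86) and without set 2 (0.14), and *Epcam* there (0.17 and 0.037). In small tumours *Krt7* (0.003) turned to -0.015 with RLE factors and with no filter, -0.026 with DESeq2, -0.0029 with the replicate block, -0.80 within set 3, -0.21 and -0.12 without sets 1 and 2, and -0.26 without *S100a8*-high libraries, and ran from -0.17 to 0.13 with 1 library left out. *Krt19* turned to 0.0075 and 0.72 within sets 1 and 2 and 0.29 without set 3, and ran from -0.29 to 0.057 with 1 left out. *Epcam* turned to -0.69 within set 3 and -0.14 without set 2. Between large and small tumours *Krt7* turned to 0.52 and 0.087 within sets 1 and 3 and 0.26 without set 2, *Krt19* to 0.41 within set 3 and 0.039 without set 2, *Epcam* to 0.37 and 0.18 there, *Cd24a* to -0.14 within set 2 and *Krt23* to -0.024 within set 3. Among correlations, *Krt7* with *Krt23* turned to 0.048 in large and -0.024 in small tumours with set means kept. Without the 2 farthest libraries *Krt23* with *Sox9* turned to -0.19 in small tumours, and in liver tissue *Krt19* with *Krt23* turned to -0.12 and *Sox9* with *Cd24a* to -0.10. Of the 25 correlations that passed, 18 passed without the 2 farthest libraries.

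Tissue libraries with the same replicate number deviated together no more than others (mean correlation -0.04 over 55 pairs, 0.002 over 1320), so the number was not used to pair them. With it as a replicate block, *Cd24a* in large tumours was 0.92 (edgeR adjusted p = 0.036), no member's call changed and large against small tumours gave 123 genes. *Krt19* and *Krt7* rest on 0 to 157 counts per library, so their fold changes are the least precise of the 6.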
